A study of Mus musculus with 6 samples.

Results

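The genes described here are 9 markers of inhibitory neurons: *Gad1*, *Gad2* and *Slc32a1*, which make and package the transmitter GABA, the transcription factor genes *Dlx1*, *Dlx2*, *Dlx5* and *Lhx6*, and the neuropeptide genes *Sst* and *Npy*. They were listed for what they are known to mark, at a time when earlier results of these data were known. All 9 passed the expression filter and belong to the 16745 genes tested, out of 52230 annotated genes with a transcript in the files. RNA was sequenced from hippocampi of *Mov10* Deletion and WT mice at postnatal day 0, with 3 libraries of each, and each library pooled at least a pair of pups. The helicase MOV10 binds mRNAs and modulates their silencing by microRNAs. The *Mov10* Deletion pups carried a LoxP-flanked *Mov10* allele, Cre recombinase expressed from the *Emx1* locus and a germline mutant *Mov10* allele, so that the cells outside the *Emx1* lineage still had the germline mutation but not the Cre-driven loss. WT were C57Bl/6 mice with no engineered allele. *Mov10* itself was at 2.45, 2.14 and 2.09 CPM (TMM-normalized counts scaled to a common library size) in the *Mov10* Deletion libraries, against 4.81, 4.75 and 4.80 CPM in WT, a log2 fold change of −1.11 (SE 0.10) that goes with the labels.

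GABAergic interneurons of the hippocampus are not born there. They arise in the ganglionic eminences of the ventral forebrain, outside the *Emx1* lineage that gives rise to the excitatory neurons, and migrate into the hippocampus before birth. DLX proteins act early in these precursors, LHX6 maintains the fate of cells from the medial eminence, and somatostatin and neuropeptide Y mark subclasses as they mature. In RNA of whole tissue, fewer cells of a type and less RNA per cell cannot be told apart. Deletion replicate 1 stood apart in choroid plexus and meningeal RNA, with a summed 181 CPM over 10 such markers, against 36.2 to 67.9 CPM in the other 5 libraries. The pools also differed in sex. Where leaving out this library, or a score of sex-linked genes as covariate, changed the call of a marker, that value is given beside it, and the counts of each list are given without this library where they changed. Of all tested genes, 23.8% were called with all libraries and 34.5% without Deletion replicate 1. The counts of each list are to be read beside those shares.

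Among the 9 genes, *Sst* was higher and *Dlx1* was lower in *Mov10* Deletion than in WT hippocampi, and the other 7 did not pass the test. *Sst* was 24.4% higher and *Dlx1* was 16.0% lower on the fitted scale. The 9 log2 fold changes had a median of 0.00039, beside a median of 0.0052 over all tested genes, and 5 of the 9 were positive. The test was limma-trend with 2 factors of unwanted variation as covariates, with Benjamini-Hochberg adjustment over all tested genes and a threshold of 0.05. By this rule 22.2% of the markers were called, and 23.8% of all tested genes were, 12.2% higher and 11.7% lower, so the number of calls among the markers was close to that of any genes. In CPM the 2 groups of libraries did not overlap for 2 of the 9 markers (*Gad2* higher, *Dlx1* lower), against 41.6% of all tested genes.

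**Figure D1:**
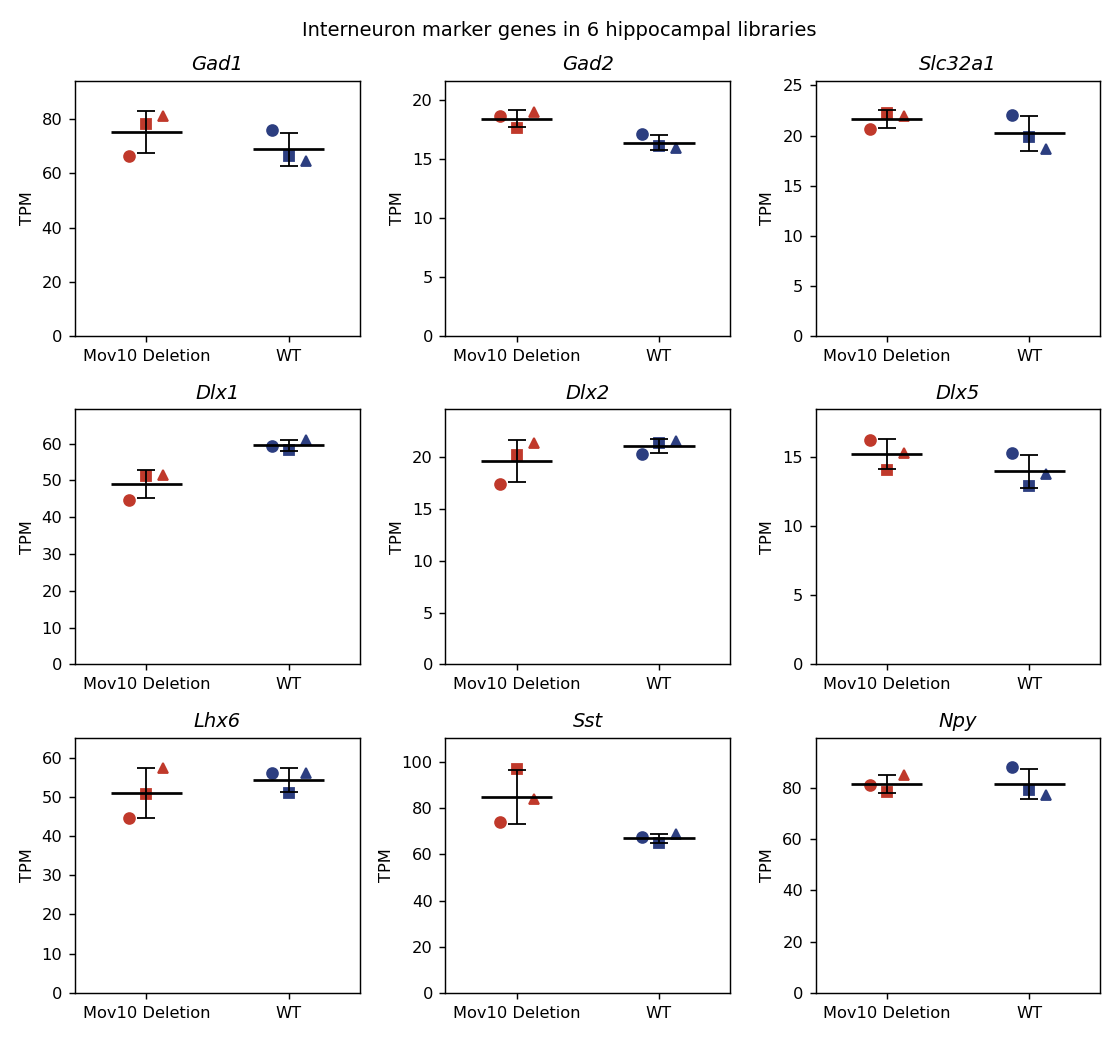
Level of each marker in TPM (length-corrected abundance, vertical axes from 0) in the 3 *Mov10* Deletion libraries (red, left) and the 3 WT libraries (blue, right); circles, squares and triangles are replicates 1, 2 and 3, the long line is the mean and the bar is 1 SD. *Dlx1* lay between 44.8 and 51.3 TPM in *Mov10* Deletion and between 58.2 and 61.0 TPM in WT, and *Gad2* and *Sst* also did not overlap on this scale, while the other 6 markers did.

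*Gad1* encodes the larger form of glutamate decarboxylase, which makes GABA for general use in the cell. It was at 90.6, 110 and 109 CPM in *Mov10* Deletion, against 103, 91.9 and 91.2 CPM in WT. Deletion replicate 1 lay below every WT library while the other Deletion libraries lay above them, and the log2 fold change of 0.09 (SE 0.04, 95% interval −0.0036 to 0.19) did not pass the test (adjusted p = 0.142). Without Deletion replicate 1 the value was 0.18 with an adjusted p of 0.00163 by limma, and *Gad1* was then called. Without WT replicate 1, which held the highest of the WT values, it was 0.19 with an adjusted p of 0.0189.

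*Gad2* encodes the smaller, membrane-bound glutamate decarboxylase of nerve terminals. Its level was 39.8, 36.4 and 40.3 CPM in *Mov10* Deletion, against 36.4, 34.4 and 35.3 CPM in WT. The lowest Deletion value was above the highest WT value by less than the digits shown. On the fitted scale the difference was 0.13 in log2 (SE 0.05, interval 0.0025 to 0.25), and the adjusted p by limma was 0.124. Without Deletion replicate 2, the lowest of its group, the log2 fold change was 0.17 with an adjusted p of 0.0101. *Slc32a1*, the vesicular transporter that loads GABA into synaptic vesicles, was at 25.6, 28.7 and 28.4 CPM in *Mov10* Deletion, against 28.6, 26.9 and 26.0 CPM in WT. These ranges covered each other almost entirely, and the 95% interval of the log2 fold change reached from −0.10 to 0.11 around a value of 0.00 (adjusted p = 0.996 by limma).

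The genes around these in GABA handling, from a list of transporters, breakdown enzymes and GABA-B receptor subunits, held 7 further genes that were tested, of which 2 were called higher and 1 lower (3 higher and 1 lower without Deletion replicate 1). *Abat*, the GABA transaminase that starts the breakdown of GABA, was lower at 71.1, 75.6 and 74.3 CPM in *Mov10* Deletion, against 83.2, 88.0 and 82.2 CPM in WT (log2 fold change −0.20, adjusted p = 0.0154 by limma). *Slc6a11*, a GABA transporter found mainly in astrocytes, was higher at 222, 237 and 213 CPM in *Mov10* Deletion, against 202, 202 and 184 CPM in WT (0.16, adjusted p = 0.0392). The groups did not overlap for either gene. *Slc6a13*, a GABA transporter of the meninges, was at 10.6, 1.78 and 2.62 CPM in *Mov10* Deletion, against 2.31, 2.32 and 2.81 CPM in WT. Its call (0.54, adjusted p = 0.0282) held in 6 of 26 alternative settings, and 1 library stood apart from the other 5.

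*Dlx1* and *Dlx2* encode homeodomain proteins that act in the precursors of forebrain GABAergic neurons and, for *Dlx1*, in subsets of mature interneurons. On GRCm39 *Dlx1* lies at chr2:71358457-71364325, on the plus strand. It had 58.7, 68.7 and 71.4 CPM in *Mov10* Deletion, against 77.9, 78.4 and 88.2 CPM in WT. The highest Deletion library was below the lowest WT library, and the Deletion mean of 66.3 ± 6.67 CPM compared with a WT mean of 81.5 ± 5.81 CPM (SD, n = 3 each). The log2 fold change was −0.25 (SE 0.04, interval −0.35 to −0.15, adjusted p = 0.00753 by limma). The value was negative in all 26 alternative settings, between −0.35 and −0.18, and was called in 24 of them. It was not called with a score of sex-linked genes as covariate in place of the factors (−0.22, adjusted p = 0.147) or, with no factors, without WT replicate 3 (−0.24, adjusted p = 0.0842), the library in which *Dlx1* was highest.

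*Dlx2* lies 9426 bases from *Dlx1* on chromosome 2, which holds 6 of the 9 markers. Its values were 18.1, 22.1 and 23.0 CPM in *Mov10* Deletion, against 22.4, 23.6 and 24.9 CPM in WT. The groups overlapped through Deletion replicate 3, which lay above WT replicate 1. The log2 fold change of −0.13 (SE 0.06, interval −0.26 to 0.00088) had the sign of that of *Dlx1* and did not pass the test (adjusted p = 0.132 by limma). *Dlx5*, a gene of the same family expressed later in the lineage, which lies on chromosome 6 and 78.3 Mb from the *Emx1* locus that carries Cre, was at 9.15, 8.33 and 8.90 CPM in *Mov10* Deletion, against 8.85, 7.67 and 8.42 CPM in WT. On the log2 scale it differed by 0.07 with an interval of −0.12 to 0.26, and it was called in 0 of 26 alternative settings.

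*Lhx6*, which specifies interneurons from the medial ganglionic eminence, had 74.1, 88.6 and 96.7 CPM in *Mov10* Deletion, against 94.3, 86.7 and 98.4 CPM in WT. Deletion replicate 1 was again below all other libraries, while the other Deletion libraries lay within the range of WT. This gave a log2 fold change of −0.08 (SE 0.06, interval −0.23 to 0.06, adjusted p = 0.356 by limma). It was 0.01 without Deletion replicate 1 and −0.16 without Deletion replicate 3, where it was called (adjusted p = 0.0111).

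**Figure D2:**
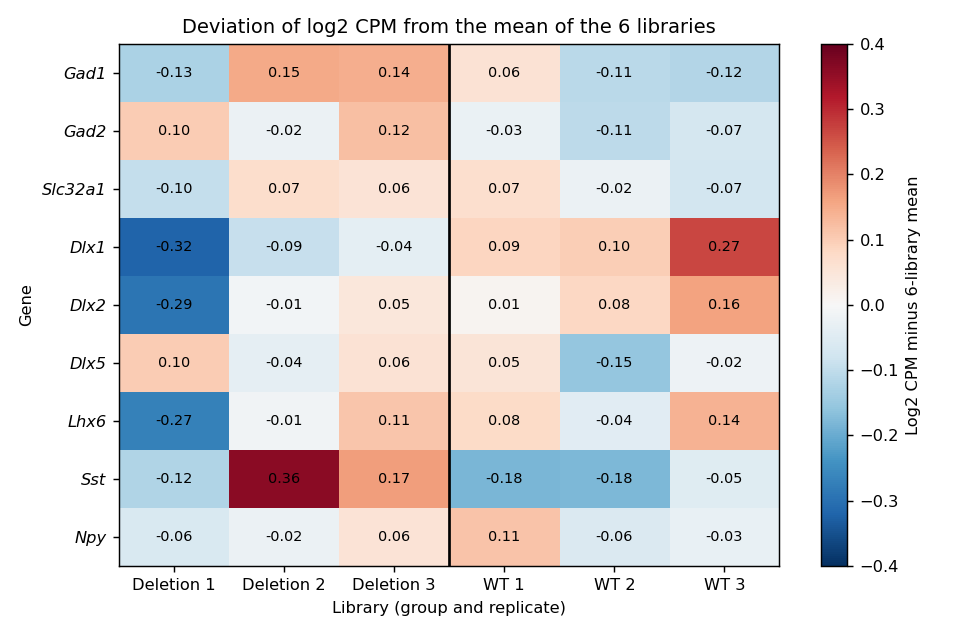
Log2 CPM of each marker (rows) in each library (columns, *Mov10* Deletion left of the black line) minus the mean of that marker over the 6 libraries; red is above and blue below the mean. *Dlx1* was below its mean in the 3 *Mov10* Deletion libraries and above it in the 3 WT libraries, and the left column, Deletion replicate 1, holds the lowest value of 6 of the 9 markers.

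Among 18 further transcription factor genes of the interneuron lineage that were tested, 0 were called higher and 1 lower. The gene called was *Nr2f1*, a nuclear receptor gene of the caudal eminence that excitatory precursors also express. *Nr2f1* was at 186, 236 and 241 CPM in *Mov10* Deletion, against 268, 249 and 276 CPM in WT (log2 fold change −0.24, adjusted p = 0.0114 by limma, called in 15 of 26 alternative settings). It was not called with no factors. Without Deletion replicate 1 the 18 genes gave 3 calls higher and 3 lower, in a fit that called 34.5% of all genes tested. *Lhx8*, which marks cholinergic neurons of the same origin, stayed under the filter with at most 6 counts in a library.

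*Sst* encodes somatostatin, the peptide of dendrite-targeting interneurons such as those of stratum oriens, and lies at chr16:23707321-23711733 on the minus strand of GRCm39. It had 16.7, 23.3 and 20.3 CPM in *Mov10* Deletion, against 16.0, 16.0 and 17.5 CPM in WT. Deletion replicates 2 and 3 were above every WT library, while Deletion replicate 1 lay below WT replicate 3, so the groups overlapped in CPM. The Deletion mean of 20.1 ± 3.30 CPM compared with a WT mean of 16.5 ± 0.884 CPM (SD, n = 3 each). The log2 fold change was 0.31 (SE 0.06, interval 0.19 to 0.44, adjusted p = 0.00856 by limma).

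The call of *Sst* was lost in more settings than that of *Dlx1*. The log2 fold change was positive in all 26 alternative settings, between 0.16 and 0.46, and was called in 18 of them. Every setting that lost the call was a fit with no factors. Among fits with neither factors nor the sex score, only DESeq2, both TPM fits and the fit without Deletion replicate 1 kept the call. With no factors the log2 fold change of *Sst* was 0.27 with an adjusted p of 0.0970 by limma, and edgeR's quasi-likelihood test gave an adjusted p of 0.0877. With no factors 1 of the 9 markers was called, *Dlx1*, against 21.0% of all tested genes. The lowest value of *Sst* came without Deletion replicate 2 and with no factors (0.16, adjusted p = 0.272), and without Deletion replicate 1 it was 0.43 with the factors. In TPM, which divides by the effective transcript length in each library, *Sst* was at 73.9, 97.0 and 83.9 in *Mov10* Deletion, against 67.5, 64.9 and 68.8 in WT, and on this scale the groups did not overlap.

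*Npy*, the gene of neuropeptide Y, which neurogliaform and other interneurons express, had 12.8, 13.1 and 13.8 CPM in *Mov10* Deletion, against 14.4, 12.8 and 13.0 CPM in WT. All but WT replicate 1 lay within a narrow range. *Npy* also lies on chromosome 6, 35.4 Mb from the *Emx1* locus and so nearer to it than *Dlx5*. Its log2 fold change was −0.04 (SE 0.07, interval −0.19 to 0.12), and it was called in 0 of 26 alternative settings.

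The promoters of the 2 called markers are shown because *Sst* is the classical target of the cyclic AMP response element. The 70 bases before the annotated start, from RefSeq on GRCm38.p6, lie at chr16:23890845-23890914 (minus strand) for *Sst* and at chr2:71529375-71529444 (plus strand) for *Dlx1*, written 5′ to 3′ with the response element in capitals.
Sst: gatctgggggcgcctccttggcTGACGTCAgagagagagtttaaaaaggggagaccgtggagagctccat
Dlx1: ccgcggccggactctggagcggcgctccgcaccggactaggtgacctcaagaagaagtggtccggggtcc
The element TGACGTCA, which reads the same on both strands, began at position −48 from the start of *Sst*. It was in no window of the other markers that had one (8 of the 9 genes matched, with 10 windows of 300 bases), and in 588 of 32851 mouse promoter windows, or 1.79%. The motif TATAAA, searched on both strands, was in windows of *Gad1* and *Lhx6* and in 13.6% of all windows. The homeodomain core TAATTA was in none of the markers' windows and in 5.29% of all. Matches of different motifs were counted without regard to overlap, and a match of letters is not a measure of binding.

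Ratios between markers within a library were taken because the depth of the library drops out of them. The ratio of *Dlx1* to *Gad1* in CPM was 0.648, 0.625 and 0.653 in *Mov10* Deletion, against 0.756, 0.853 and 0.967 in WT. The ratio of *Dlx1* to *Dlx2* was 3.24, 3.11 and 3.11 in *Mov10* Deletion, against 3.47, 3.32 and 3.55 in WT. For each of the 8 other markers, the ratio of *Dlx1* to it was lower in all *Mov10* Deletion libraries than in any WT library, and each such ratio had a two-sided exact permutation p of 0.1, the smallest that 3 against 3 libraries allow. Since the 8 ratios share *Dlx1*, they are not separate observations. Only *Dlx1* and *Sst* were used as numerators, because they were the called markers. The ratios therefore restate differences already found and do not test them anew. The ratio of *Sst* was higher without overlap to 3 of the 8 (*Dlx1*, *Dlx2* and *Lhx6*) and overlapped for the other 5. *Sst* to *Lhx6* was 0.225, 0.263 and 0.210 in *Mov10* Deletion, against 0.169, 0.185 and 0.178 in WT.

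The order of the markers' levels was compared in TPM, which corrects for length. In *Mov10* Deletion the highest was *Sst* at 84.9 ± 11.6 TPM, then *Npy* at 81.6 ± 3.37 and *Gad1* at 75.3 ± 7.71 TPM (SD, n = 3), and these neighbours overlapped in range. In WT *Npy* came first at 81.7 ± 5.79 TPM, clear of *Gad1* at 68.9 ± 6.07 TPM, which overlapped with *Sst* at 67.1 ± 1.96 TPM. *Dlx1* stood at 49.1 ± 3.76 TPM in *Mov10* Deletion and at 59.5 ± 1.43 TPM in WT, and *Lhx6* at 50.9 ± 6.33 TPM in *Mov10* Deletion and 54.4 ± 3.03 TPM in WT. These genes overlapped with each other in *Mov10* Deletion, and *Dlx1* was above *Lhx6* without overlap in WT. *Slc32a1*, *Dlx2* and *Gad2* lay between 15.9 and 22.3 TPM in every library, and *Dlx5* was lowest in both groups, at 15.2 ± 1.08 TPM in *Mov10* Deletion and 14.0 ± 1.20 TPM in WT.

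The transcripts of the markers were examined next, since Salmon divides reads among overlapping isoforms. *Slc32a1*, *Sst* and *Npy* have a single annotated transcript. *Dlx1* had 6, of which the coding *Dlx1-201* held 38.3% ± 1.38 of its TPM in *Mov10* Deletion, against 37.3% ± 0.691 in WT, and the retained-intron *Dlx1-203* held 26.1% ± 1.21 in *Mov10* Deletion, against 26.7% ± 1.23 in WT (SD, n = 3 each). *Dlx1-201* was at 17.1, 18.9 and 20.4 TPM in *Mov10* Deletion, against 21.9, 21.5 and 23.3 TPM in WT, and *Dlx1-203* was at 11.1, 13.4 and 14.0 TPM in *Mov10* Deletion, against 15.5, 15.1 and 17.2 TPM in WT. Both transcripts lay lower in every *Mov10* Deletion library than in any WT library. The coding *Dlx1-205* overlapped between the groups, at 8.02 to 9.69 TPM in *Mov10* Deletion, against 8.24 to 11.99 TPM in WT. The retained-intron *Dlx1-206*, at 4.55 to 5.335 TPM in *Mov10* Deletion, against 5.338 to 7.9 TPM in WT, was lower by a narrow margin. The use of transcripts within a gene could be tested for *Gad1*, *Dlx1*, *Dlx5* and *Lhx6*, and 0 of these 4 were called with limma's diffSplice, against 5.38% of the 10338 genes tested. Unadjusted p-values of the 4 genes lay between 0.152 and 0.871, and without the factors 0 were called as well. *Gad1-201* held 86.2% ± 2.58 of the TPM of *Gad1* in *Mov10* Deletion and 86.4% ± 1.19 in WT. *Lhx6* was spread over 3 coding transcripts, of which *Lhx6-204* held 40.0% ± 4.02 in *Mov10* Deletion and 38.2% ± 1.46 in WT, *Lhx6-205* held 38.6% ± 4.76 in *Mov10* Deletion and 40.6% ± 4.85 in WT, and *Lhx6-201* held the rest but for minor forms.

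Antisense and neighbouring genes were counted apart, from stranded libraries. *Dlx1as*, a noncoding RNA antisense to *Dlx1* that overlaps it by 5869 bases, was at 12.7, 14.4 and 16.6 CPM in *Mov10* Deletion, against 13.1, 13.6 and 10.3 CPM in WT. Its log2 fold change of 0.18 had the opposite sign to that of *Dlx1* and did not pass the test (adjusted p = 0.238 by limma). Of the 4 genes of this kind that were tested 0 were called, and 1 was called higher without Deletion replicate 1. *Dlx6os1*, the long noncoding RNA of the *Dlx5* and *Dlx6* locus, was at 20.8, 23.0 and 23.0 CPM in *Mov10* Deletion, against 25.2, 21.4 and 20.4 CPM in WT, and *Dlx6* was near 2 CPM in both groups. *Gad1os*, which overlaps *Gad1*, had 0.281, 0.393 and 0.308 CPM in *Mov10* Deletion, against 0.267, 0.251 and 0.130 CPM in WT, and did not pass either. The pseudogene *Gad1-ps* had at most 2.00 counts in a library.

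**Figure D3:**
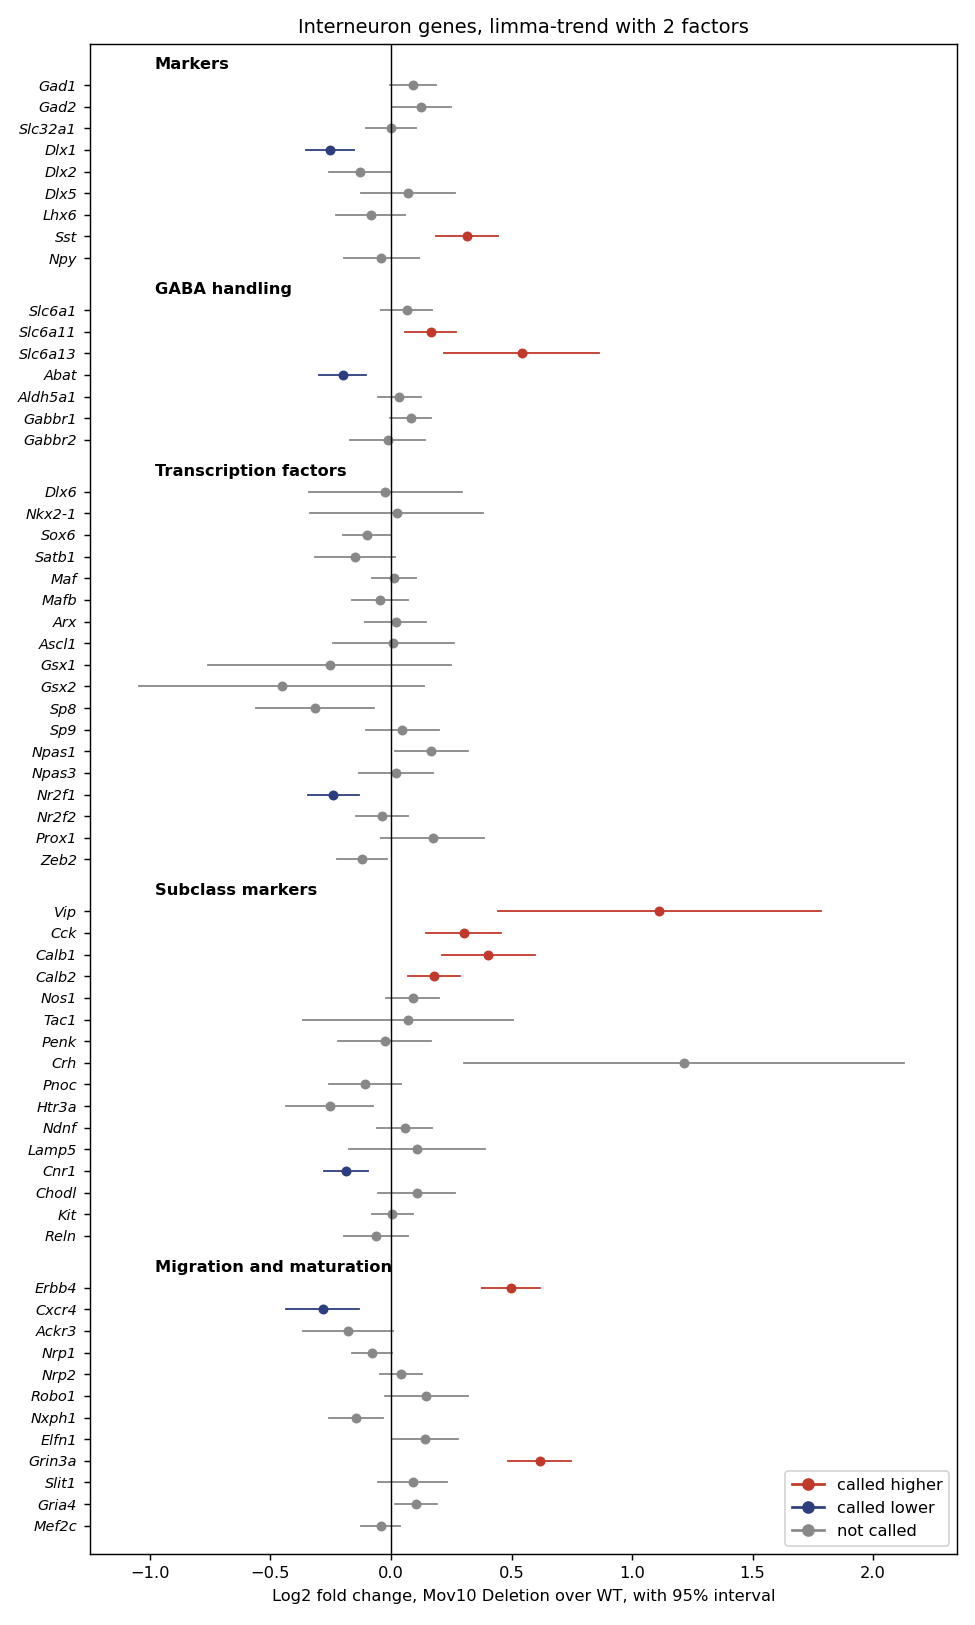
Log2 fold change, *Mov10* Deletion over WT, with its 95% interval for the 9 markers and for 4 further lists of interneuron genes; red is called higher, blue called lower and grey not called by limma-trend with 2 factors. The markers lay within 0.31 of 0 in either direction, and each of the 4 further lists held called genes, those of the transcription factors only in the lower direction.

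Among 16 further genes that mark interneuron subclasses and were tested, 4 were called higher and 1 lower, and without Deletion replicate 1 it was 4 higher and 2 lower of 15. *Calb1*, the calbindin gene, was at 8.77, 13.2 and 10.6 CPM in *Mov10* Deletion, against 8.01, 8.40 and 8.22 CPM in WT (log2 fold change 0.40, adjusted p = 0.0138 by limma). *Cnr1*, the cannabinoid receptor of cholecystokinin interneurons, was lower at 383, 422 and 420 CPM in *Mov10* Deletion, against 476, 447 and 480 CPM in WT (−0.19, adjusted p = 0.0155). These genes are not particular to inhibitory cells, since granule and pyramidal neurons express calbindin and developing excitatory neurons express the receptor. *Calb1* was called in 17 and *Cnr1* in 22 of 26 alternative settings. *Cck* (0.30) was called while its groups overlapped, and in only 8 of 26 alternative settings, with values from −0.019 to 0.42, at 41.8, 27.0 and 27.3 CPM in *Mov10* Deletion, against 22.3, 26.0 and 36.2 CPM in WT. *Vip* (1.11) was called at only 0.364 to 0.514 CPM in *Mov10* Deletion, against 0.145 to 0.209 CPM in WT, where values rest on few counts, and in 14 of the 19 alternative settings that tested it. *Pvalb*, the marker of fast-spiking interneurons that appears later after birth, had at most 4 counts in a library.

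Of 12 genes of interneuron migration and maturation, 2 were called higher and 1 lower. *Erbb4*, the neuregulin receptor gene that migrating interneurons use, was at 75.2, 90.7 and 93.8 CPM in *Mov10* Deletion, against 60.9, 63.2 and 58.9 CPM in WT (log2 fold change 0.50, SE 0.05, adjusted p = 0.00183 by limma). *Grin3a*, an NMDA receptor subunit gene enriched in somatostatin cells of the cortex, was at 42.9, 51.8 and 49.7 CPM in *Mov10* Deletion, against 30.3, 33.4 and 30.8 CPM in WT (0.62, SE 0.06, adjusted p = 0.00132). Every Deletion library was above every WT library for both genes, which were called in all 26 alternative settings. *Grin3a* is also expressed by young pyramidal neurons. *Cxcr4*, the chemokine receptor that guides migrating interneurons and Cajal-Retzius cells, was lower at 114, 86.7 and 106 CPM in *Mov10* Deletion, against 127, 119 and 119 CPM in WT (−0.28, adjusted p = 0.0199, called in 17 of 26). Without Deletion replicate 1 the list gave 6 higher and 1 lower, in a fit that called 34.5% of all genes tested. With no factors it gave 2 higher and 0 lower, where 21.0% of all genes were called.

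The libraries of *Mov10* Deletion differed from each other more than those of WT in the sum of the markers. The summed CPM of the 9 markers was 346, 399 and 412 in *Mov10* Deletion, against 402, 378 and 403 in WT. Deletion replicate 1 held the lowest value of *Gad1*, *Slc32a1*, *Dlx1*, *Dlx2*, *Lhx6* and *Npy* and the highest of *Dlx5*. In the same library the summed CPM of 10 choroid plexus and meningeal markers was 181, against 36.2 and 45.7 in the other *Mov10* Deletion libraries and 62.3 to 67.9 in WT. Of these 10 genes, 1 was called higher (*Lum*, in 9 of 26 alternative settings) and 1 lower (*Ttr*, in 13 of 26, with values from −3.10 to 0.74), with no factors 0 were called either way, and without Deletion replicate 1 it was 0 higher and 7 lower. *Ttr*, the defining choroid plexus gene, was at 45.6 CPM there, against 0.786 and 3.75 in the other *Mov10* Deletion libraries and 5.10 to 13.4 in WT, and *Folr1* was at most 1.14 CPM in any library. The first factor of unwanted variation was 0.83 in Deletion replicate 1 and between −0.48 and 0.06 in the others. Without this library 2 of the 9 markers were called higher (*Gad1*, *Sst*) and 1 lower (*Dlx1*, −0.18), in a fit that called 34.5% of 16606 genes.

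*Xist*, the RNA that coats the inactive X chromosome of females, was at 0.184, 888 and 1.57 CPM in *Mov10* Deletion, against 182, 251 and 643 CPM in WT, so that 2 of the 3 *Mov10* Deletion pools held almost no female RNA and all WT pools held some. With the sex score as covariate the log2 fold change of *Sst* was 0.46 (adjusted p = 0.0204 by limma). The part of meningeal RNA and of sex in the values of the markers was not tested beyond these settings.

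Markers of neighbouring regions were looked at because striatal and other ventral neurons share *Gad1*, *Gad2*, *Slc32a1* and the *Dlx* genes. Of 13 striatal and ventral projection neuron markers tested, 4 were called higher and 0 lower, with no factors 1 higher and 0 lower, and without Deletion replicate 1 it was 3 higher and 1 lower. The 3 highest were *Rarb* (0.45) and *Drd1* (0.42), each called in 8 of 26 alternative settings, and *Rgs9* (0.32), called in 19. Their summed CPM was 178 to 204 in *Mov10* Deletion and 160 to 210 in WT. *Drd1*, which marks striatal neurons, was at 2.80, 2.53 and 2.69 CPM in *Mov10* Deletion, against 1.87, 2.04 and 2.42 CPM in WT. Of 10 Cajal-Retzius markers 1 was called higher (*Calb2*) and 0 lower (3 higher and 0 lower without Deletion replicate 1). The same call of *Calb2* (0.18, in 17 of 26 alternative settings) is also counted among the interneuron subclass markers called higher. Of 7 oligodendrocyte precursor markers 0 were called higher and 1 lower (*Olig2*, called in 8 of 26 alternative settings). Of 16 hippocampal excitatory markers 3 were called higher and 2 lower (5 higher and 3 lower without Deletion replicate 1), with a summed CPM of 3981 to 4238 in *Mov10* Deletion and 3825 to 3975 in WT. A large part of this sum was *Zbtb20*, called higher at 1550, 1486 and 1771 CPM in *Mov10* Deletion, against 1307, 1314 and 1356 CPM in WT. It was called in 18 of 26 alternative settings. Also called higher were *Nrgn* (0.55, in all 26) and *Wfs1* (0.21, in 13). The genes called lower were *Lhx2* (−0.28, in all 26) and *Emx2* (−0.19, in 25). The median log2 fold change of the 16 genes was −0.050, so the higher sum does not describe the list as a whole. Of 13 pan-neuronal markers 2 were called higher and 1 lower (6 higher and 2 lower without Deletion replicate 1). The part of other regions and cell types in the values of the 9 markers was not tested.

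Across the 6 libraries the markers did not follow a single pattern. The correlation of a marker with the mean of the other 8, a description over 6 libraries whose depth and dissection all markers share, was 0.78 for *Gad1*, 0.72 for *Slc32a1*, 0.70 for *Npy* and 0.69 for *Lhx6*. It was 0.36 for *Sst*, 0.29 for *Dlx2*, 0.10 for *Dlx1*, 0.04 for *Dlx5* and −0.0014 for *Gad2*. The 5 protein-coding genes whose log2 CPM was most like the mean of the 9 markers, among 13257 candidates with at least 1 CPM, were *Lrrc75b*, *Dscaml1*, *Arv1*, *Vwc2l* and *Taf4*, with Pearson's r between 0.963 and 0.980. *Dscaml1*, a cell adhesion gene of neurons, was at 121, 129 and 133 CPM in *Mov10* Deletion, against 129, 124 and 126 CPM in WT. None of the 5 was called by limma-trend (adjusted p from 0.773 to 0.962), and such values of r are the highest of a large number of candidates. The mean z-scored profile they were picked to match was −0.82, 0.26 and 0.75 in *Mov10* Deletion, against 0.42, −0.60 and −0.02 in WT. Since the groups overlap in that profile, the absence of calls follows from the way the genes were picked.

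**Figure D4:**
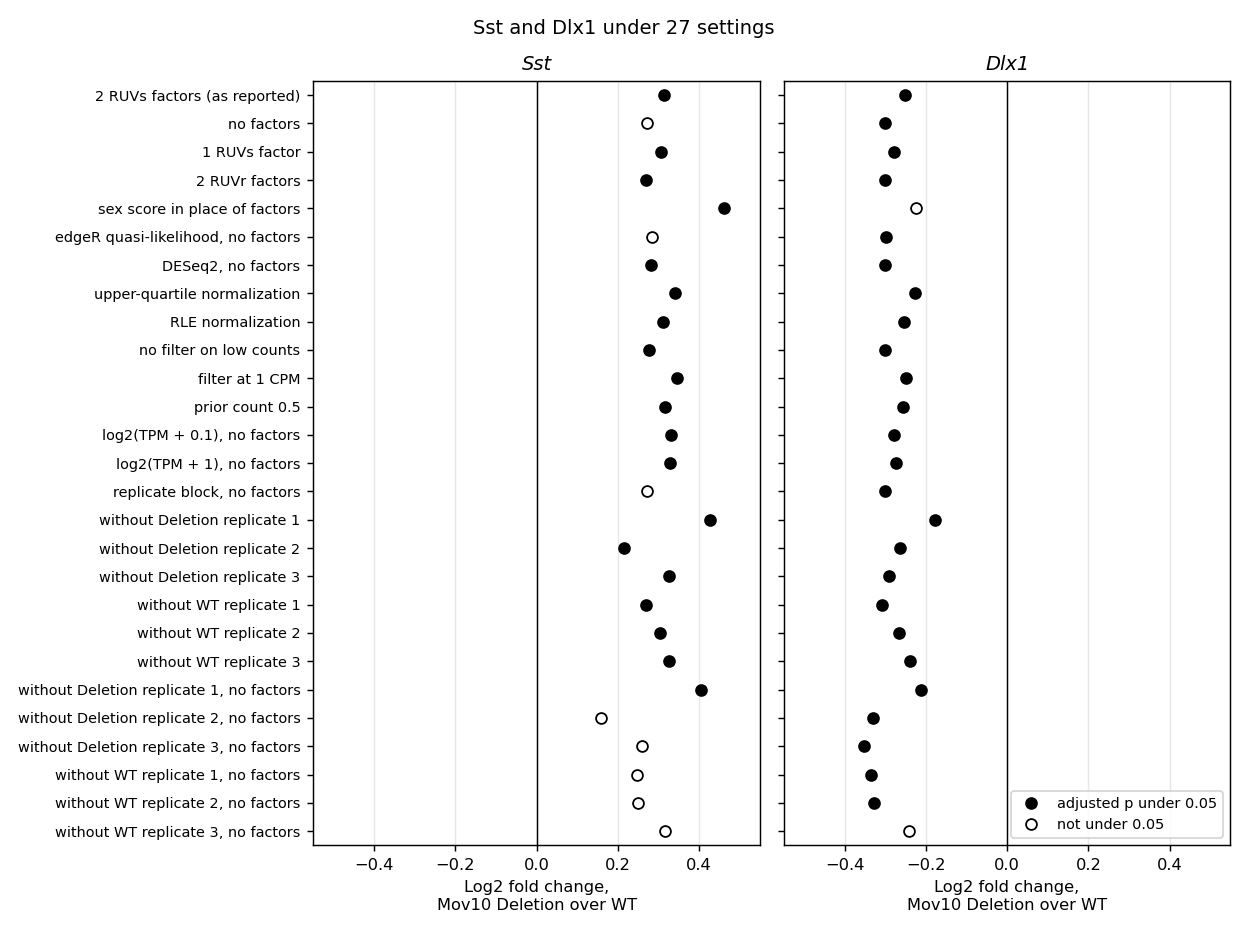
Log2 fold change, *Mov10* Deletion over WT, of *Sst* (left panel) and *Dlx1* (right panel) under the reported model and 26 alternatives (rows); filled points have an adjusted p under 0.05 and open points do not. All points of *Sst* lay above 0, with 8 open, and all points of *Dlx1* lay below 0, with 2 open.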

How the data were processed

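Poly(A)-selected, strand-specific libraries of pooled newborn hippocampi were made by the authors, 3 labelled *Mov10* Deletion and 3 labelled WT. The p-values therefore measure the spread between pools that the factors leave. Salmon 1.4.0 was run by the authors on a mouse transcript index with GRCm39 as decoy (annotation release not given in the sources used here). Per transcript, the deposited estimated counts are raw. The deposited TPM were scaled by Salmon for length and depth.

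Transcripts were matched to GENCODE M39 (137570 of 139225, with 0.589% to 0.600% of counts unmatched and left out) and summed per gene. Library totals were 71400300 to 86207971 estimated counts, and the 9 markers had 580 to 8865 counts per library. Genes at 0.25 CPM or more in 3 or more libraries were TMM-normalized and tested with limma-trend on log2 CPM (prior count 2) with 2 RUVs factors, written out in R (R 4.3.3, edgeR 4.0.16, limma 3.58.1). Neither the RUVSeq function nor the prior count is stated by the study. The fit left 2 residual and 5.77 prior degrees of freedom, and estimated counts were rounded only for the edgeR and DESeq2 1.42.0 alternatives. CPM values were not corrected for the factors.

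By the rule for naming, the 9 markers are given in every library. Also eligible were *Mov10*, the antisense and neighbouring genes, transcripts with at least 10% of a marker's TPM, the 5 genes most like the markers and, of each other list, the 3 highest and 3 lowest called genes. Not all of these are given, nor each in every library. Other genes named (*Pvalb*, *Lhx8*, *Folr1*, *Xist*) were picked once their values had been seen. The markers and lists were chosen with earlier results of these data known. The 26 alternatives covered factors, a sex score, test, normalization, filter, prior count, TPM with pseudocounts, the replicate block and leaving out each library.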

Additional observations from a re-analysis of the deposited data

How the results depend on the processing

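The number of all genes called, 3992 as reported, was 1364 with the sex score, 2308 with log2(TPM + 0.1) and 2263 with log2(TPM + 1), both without factors. When a library was left out it was 2334 to 5899 with the factors. With no factors it was 2366 without Deletion replicate 2, 2020 without Deletion replicate 3, 1801 without WT replicate 2 and 1768 without WT replicate 3. With upper-quartile normalization it was 2238 higher and 1435 lower, against 2038 and 1954 with TMM. The number of markers called higher, 1 as reported, was 0 with no factors, 0 with edgeR's quasi-likelihood test, 2 with RUVr factors and 0 to 2 when a library was left out. The number called lower, also 1, was 2 with RUVr factors (*Dlx1* and *Dlx2*), 0 with the sex score and 0 to 3 when a library was left out. Of all 16745 genes tested, the fit with RUVr factors called 5568, that with no factors 3510 and edgeR's quasi-likelihood test 3479. The fit without Deletion replicate 3, with the factors, called 3 markers lower and 4942 of 16573 genes either way. The numbers of markers are to be read beside these totals. Same-numbered libraries of the groups deviated from their group means with r of 0.011, −0.071 and 0.043. With 3 libraries in a group, such values cannot decide whether the numbers pair the pools. A fit with the replicate block and no factors called 3425 genes, with 0 markers higher and 1 lower, and the adjusted p of *Sst* by limma was 0.0650. Markers with log2 fold changes near 0 changed sign, none of them called after the change. *Slc32a1* was −0.0020 with RLE normalization and −0.027 to 0.067 when a library was left out, and with no factors −0.0098 without Deletion replicate 2 and −0.011 without WT replicate 3. When a library was left out *Lhx6* was −0.16 to 0.014 and *Npy* −0.078 to 0.042, and with no factors *Npy* was 0.032 without WT replicate 1 and 0.012 without Deletion replicate 1. *Dlx5* kept its sign and stayed uncalled in all 26 settings. The causes of these shifts were not tested. A setting without a library leaves 2 pools in a group, and with 2 factors 1 residual degree of freedom.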
